A study of Homo sapiens with 12 samples.

Results

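The genes described here encode the proteins of the mitochondrial ribosome, and were taken as every row of the count table whose symbol is MRPL or MRPS followed by a number and, in some, a letter from A to D. They number 78 of the 28278 genes in the table. RNA was sequenced in bulk from alpha cells, which secrete glucagon in the pancreatic islet, made from HUES-8. This is an established line of human embryonic stem cells, and all samples derive from it. In the tunicamycin group, 6 samples were exposed to 5 uM tunicamycin, and in the DMSO group 6 samples received its solvent, both for 48 h in bioreactors of 30 mL turned at 40 rpm. Samples numbered 1 to 3 in each group were sequenced in batch 1 and those numbered 4 to 6 in batch 2. Tunicamycin blocks the start of N-glycan assembly, so that misfolded protein collects in the endoplasmic reticulum (ER), and the study used it to model alpha cells under ER stress. The genes of that response were higher in the 6 tunicamycin samples. HSPA5, the main ER chaperone, stood at 5270 ± 1022 CPM (counts scaled to library size with TMM factors; SD, n = 6) with tunicamycin and at 845 ± 144 CPM with DMSO, a log2 fold change of 2.63 ± 0.16 (SE). DDIT3 and TRIB3, which encode the stress factor CHOP and a pseudokinase that CHOP induces, had log2 fold changes of 2.13 and 2.21, and ATF4, the factor translated under stress, one of 0.46 (adjusted p = 0.0218). The ATF4 call was lost without tunicamycin 4 (0.0582) or DMSO 4 (0.0538).

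The mitochondrial ribosome translates the few messages encoded in the mitochondrial genome, all of them for subunits of the respiratory chain and the ATP synthase. Its proteins are made in the cytosol from nuclear genes and imported, and assemble with mitochondrial rRNA into a small subunit, which decodes the message, and a large subunit, which forms the peptide bond. Some of its proteins descend from bacterial ribosomal proteins and others were added during mitochondrial evolution. Of the 78 genes, 26 encode small subunit proteins and 51 large subunit proteins, MRPS30 and MRPS18A being large subunit proteins in spite of their symbols. The product of the remaining gene, MRPS36, was later placed in the oxoglutarate dehydrogenase complex. By ancestry, 48 have a bacterial homologue and 29 are specific to mitochondria.

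Most genes of the set were slightly lower with tunicamycin, but few passed the test for a single gene. Of the 78 genes 77 passed the filter on low counts, the exception being MRPS24. Of these, 0 were higher and 1 was lower with tunicamycin at an adjusted p under 0.05 (quasi-likelihood test of edgeR, batch as covariate, adjusted over 17137 genes), where 4.56% of all tested genes were higher, 3.29% lower and 7.84% changed in either direction. At an unadjusted p under 0.05, 2 members were higher and 19 were lower (24.7%), against 10.8% and 11.2% of all tested genes. The log2 fold change was negative for 65 of 77 members (84.4%), against 51.7% of all tested genes. Its median was -0.16 for the members, with a range of -0.56 to 0.26, and -0.01 for all tested genes. Among the 5573 tested genes whose mean log2 CPM lay between 3.87 and 5.87, the span of the members from their 10th to their 90th percentile, the median was 0.00. In the separate batches the members' median was -0.14 in batch 1 and -0.18 in batch 2. With the sample number as a block in place of batch, 1 member was higher and 8 were lower, where 8.92% and 8.4% of all tested genes were called. DESeq2 called 0 higher and 4 lower, where it called 6.4% and 5.9% of genes: MRPL28, MRPS15, MRPS7 and MRPL16. In bulk RNA, fewer cells of a type and less RNA per cell cannot be told apart.

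**Figure D1:**
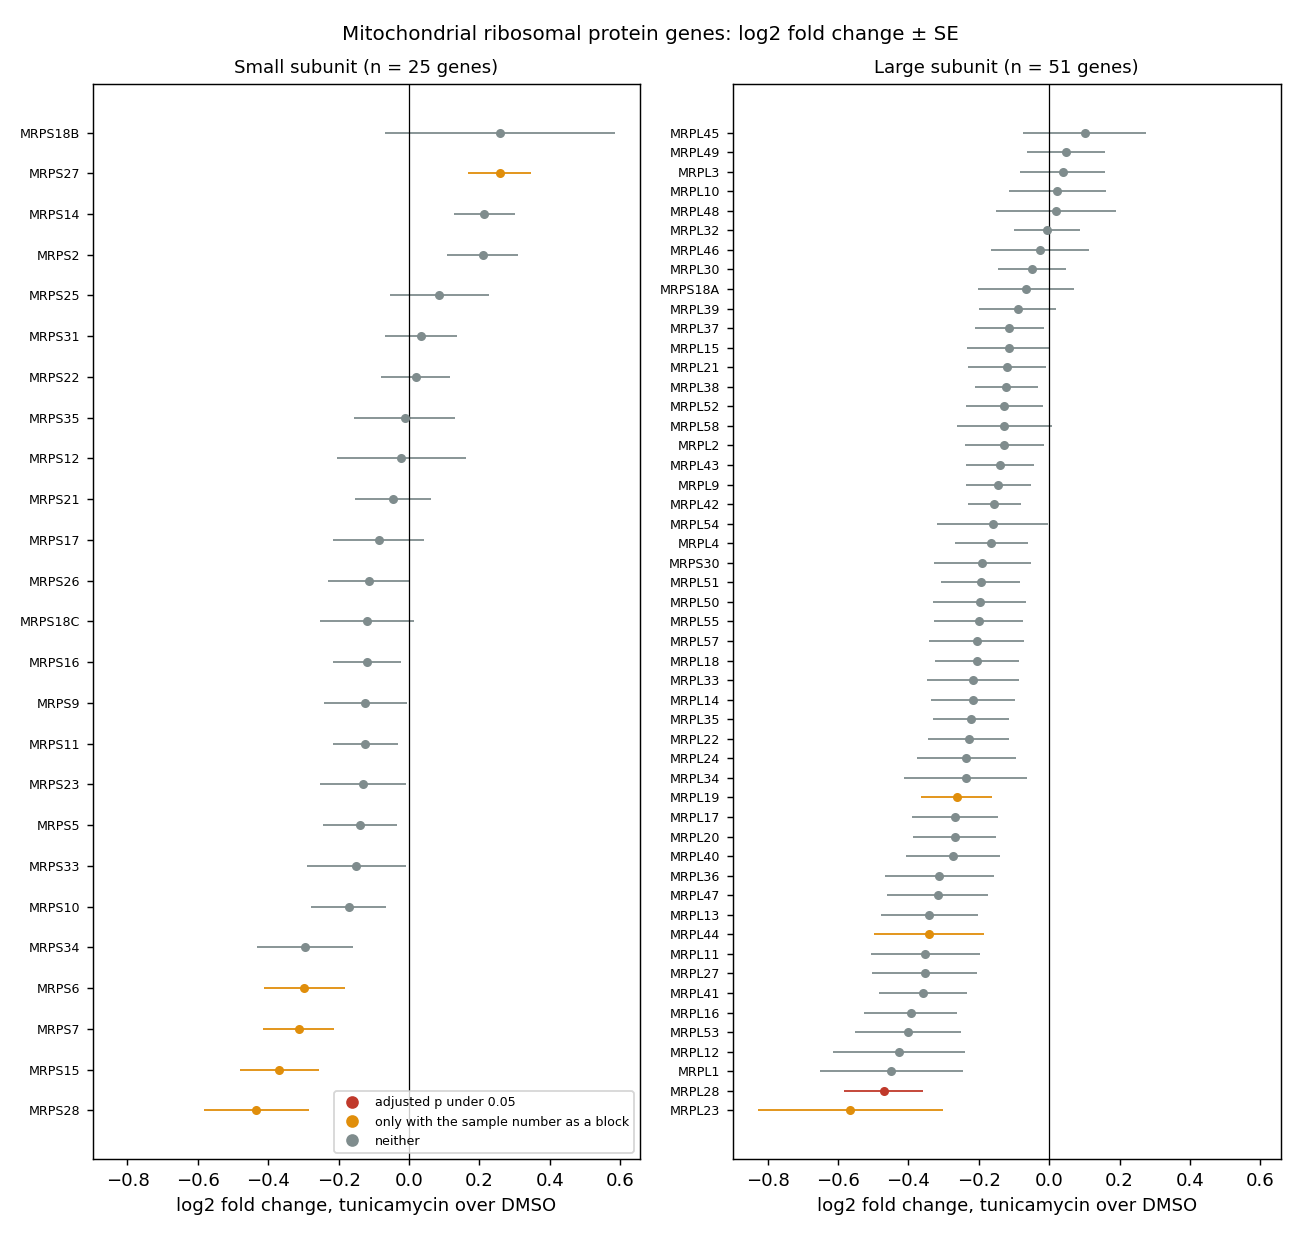
Log2 fold change of tunicamycin over DMSO with its standard error for each tested gene of the small subunit (left, 25 genes) and large subunit (right, 51 genes), ordered by size, from edgeR with batch as a covariate (n = 6 per group). MRPL28 has an adjusted p under 0.05, and 8 further genes have one only when the sample number is a block; most points lie left of 0.

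MRPL28, a large subunit protein with a bacterial homologue (L28), was the member called lower with batch. Its gene lies at chr16:366969-371289 on the minus strand (GRCh38). With tunicamycin the lowest, median and highest samples were at 47.6, 63.3 and 75.6 CPM, against 68.0, 82.0 and 109 CPM with DMSO. The groups overlapped in this range, but the tunicamycin sample was the lower one in 6 of 6 pairs with the same number. The means were 62.2 ± 10.9 CPM with tunicamycin and 85.4 ± 15.1 CPM with DMSO (SD, n = 6 each), a fold of 0.722 and a log2 fold change of -0.47 ± 0.11 (edgeR adjusted p = 0.0208; 0.0145 with the block; DESeq2 0.0020). The call depended on single libraries: it was lost without tunicamycin 4 (adjusted p = 0.0553) and without DMSO 5 (0.0525), and also without the batch covariate (0.0710). The log2 fold change was -0.58 in batch 1 alone and -0.35 in batch 2 alone, with adjusted p of 0.336 and 0.230. Part of its exons, 11.4% of their length, is shared on the same strand with PGAP6, so some reads could belong to either gene. The 30 bases around its transcription start hold the letters CTTCCGG, the reverse complement of the ETS core, in capitals (RefSeq, GRCh38.p14, chr16:370513-370542, minus strand):
MRPL28: cggcagatcggCTTCCGGttccggtgggct

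**Figure D2:**
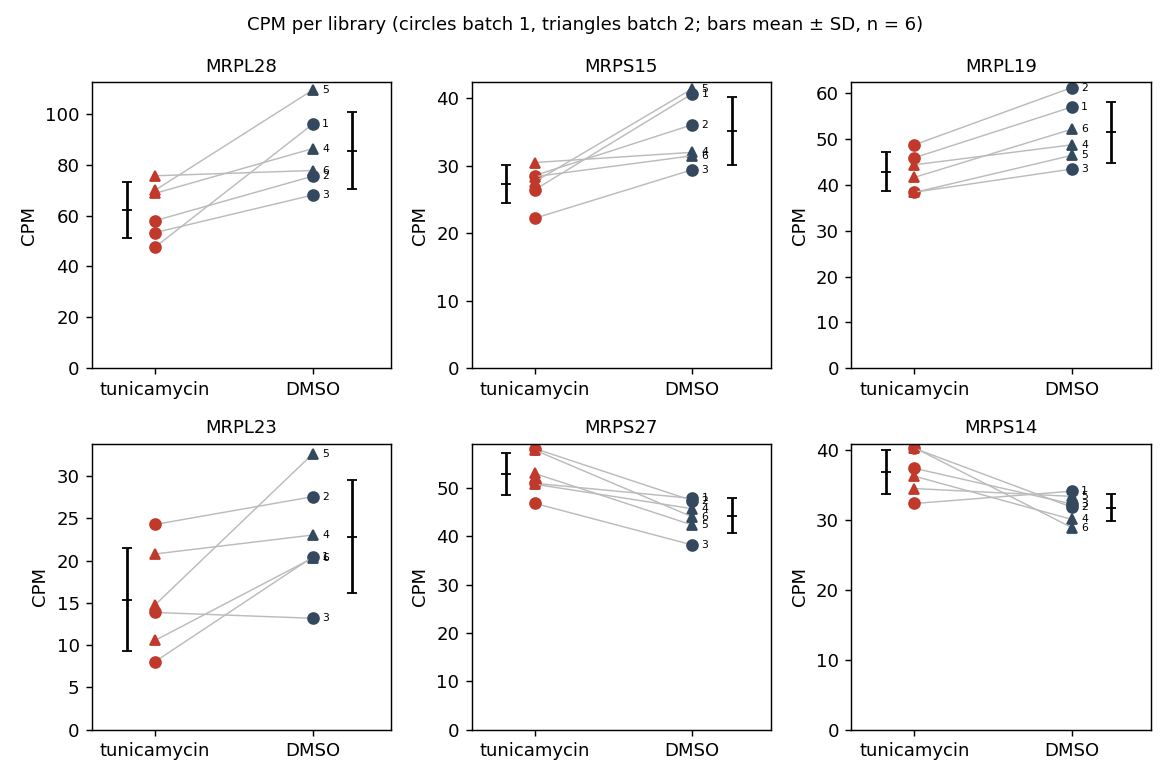
CPM of 6 genes in each library, tunicamycin left and DMSO right, with lines joining samples of the same number (circles batch 1, triangles batch 2) and mean ± SD beside the points (n = 6 each). MRPL28, MRPS15 and MRPL19 were lower in 6 of 6 pairs, MRPL23 in 5 of 6, and MRPS27 was higher in 6 of 6 and MRPS14 in 5 of 6.

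The size of this difference varied between pairs of samples. Over the 77 members, the median log2 ratio of tunicamycin over DMSO was -0.32, -0.07, -0.03, -0.03, -0.45 and -0.01 in the pairs numbered 1 to 6, and 71, 49, 42, 44, 69 and 39 members were the lower in the tunicamycin sample. The pairs numbered 1 and 5 thus held the larger part of it, and in the other 4 pairs the median was near 0. Without both samples numbered 1 the median of the fitted log2 fold changes was -0.13, without both numbered 5 it was -0.11, and without all 4 it was -0.05, where that of all genes was -0.02. In those 3 fits, which were chosen after seeing the data, MRPL28 was at -0.36, -0.43 and -0.28 with adjusted p of 0.0703, 0.0900 and 0.194. Summed over the members, expression ran from 2201 to 2692 CPM in the tunicamycin samples and from 2289 to 3408 CPM in the DMSO samples. DMSO 5 was the highest of all 12 libraries for 52 of the 77 members. The lowest library was tunicamycin 3 for 25 members, DMSO 3 for 21 and tunicamycin 1 for 17. Lower in 6 of 6 pairs were 12 members (15.6%), against 10.4% of all tested genes: MRPL1, MRPL17, MRPL19, MRPL20, MRPL28, MRPL35, MRPL42, MRPL44, MRPL53, MRPS6, MRPS15 and MRPS28. Higher in 6 of 6 were MRPS2 and MRPS27 (2.6%, against 10.7% of all tested genes). No member had groups of 6 that did not overlap, which 3.77% of all tested genes had.

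**Figure D3:**
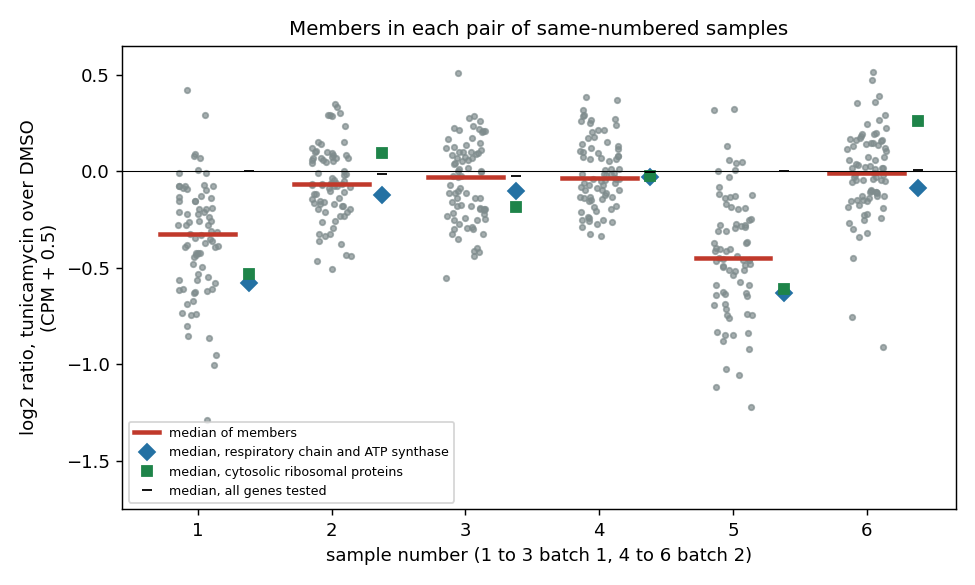
Log2 ratio of tunicamycin over DMSO (CPM + 0.5) for the 77 tested members (points) in each pair of samples with the same number, with their median (red bar) and the medians of 3 other sets of genes. The median of the members was -0.32 and -0.45 in the pairs numbered 1 and 5 and between -0.07 and -0.01 in the others.

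Summed heart muscle markers were higher in the DMSO than in the tunicamycin sample of the pairs numbered 1, 3, 4 and 5, by unlike amounts. All 6 alpha cell markers were present in every library, with GCG, the glucagon gene, at 44759 CPM or more. They summed to 59235 to 94520 CPM with tunicamycin and to 79143 to 117495 CPM with DMSO. With batch 0 of 6 were called higher and 0 lower, against 0 and 1 by DESeq2 and at an unadjusted p. The lower one was GCG, at a log2 fold change of -0.39 ± 0.16 (edgeR adjusted p = 0.176, DESeq2 0.0380), lower in 6 of 6 pairs. The sum of 12 heart muscle markers was 27.99 CPM in tunicamycin 1 against 599 CPM in DMSO 1, and 1230 CPM in tunicamycin 5 against 2350 CPM in DMSO 5. In the pair numbered 4, where the median of the members was -0.03, it was 220 CPM in tunicamycin 4 against 405 CPM in DMSO 4. In the pair numbered 3 it was 18.3 CPM with tunicamycin against 20.6 CPM with DMSO. The tunicamycin sample was the higher in the pairs numbered 2 (15.5 against 11.6 CPM) and 6 (55.0 against 33.8 CPM). No marker was at 0 in any library, and none of the 12 was called with batch (1 higher and 1 lower at an unadjusted p, 1 and 0 by DESeq2, 1 and 2 with the block). The 12 mesenchymal markers summed to 832 to 1470 CPM with tunicamycin and to 754 to 2494 CPM with DMSO, the highest sum being that of DMSO 1. VIM alone stood at 840 ± 88 CPM with tunicamycin and 796 ± 302 CPM with DMSO. The median log2 fold change of the 12 was -1.27 (10 negative and 2 positive), with pair medians from -2.27 in number 1 to 0.08 in number 5. None of these 12 was called with batch (0 higher and 5 lower at an unadjusted p; 0 and 1 by DESeq2), and 10 were lower with the block. The sum of 7 ductal and acinar markers was 158 to 325 CPM with tunicamycin and 357 to 565 CPM with DMSO (0 higher and 4 lower). That of 6 liver markers was 381 to 634 CPM with tunicamycin and 456 to 1027 CPM with DMSO (0 higher and 3 lower). SERPINA1 alone stood at 474 ± 90 CPM with tunicamycin and 614 ± 191 CPM with DMSO. The median log2 fold change of the 6 was -0.75 (5 negative and 1 positive). Of all tested genes 3.29% were lower with batch, 8.4% with the block, 5.9% by DESeq2 and 11.2% at an unadjusted p. The part of these cells in the lower values of the mitochondrial ribosomal protein genes was not tested. Sequencing depth was between 17523442 and 28872269 counts a library, and the members together took between 0.233% and 0.324% of the counts of a library.

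In the large subunit 46 of 51 genes had a negative log2 fold change, with a median of -0.20. Of the 51, 0 were higher and 1 lower (0 and 4 with the block; 0 and 2 by DESeq2; 0 and 14 at an unadjusted p under 0.05), where 3.29% of all tested genes were lower with batch, 8.4% with the block, 5.9% by DESeq2 and 11.2% at an unadjusted p. The 31 with a bacterial homologue had a median of -0.23 and the 20 specific to mitochondria one of -0.15. MRPL23, a protein at the exit of the tunnel through which the new peptide leaves, had the lowest value of the set, -0.56 ± 0.26 (adjusted p = 0.228; with the block -0.61 and 0.0405). Its samples lay at 8.05, 14.3 and 24.3 CPM (lowest, median and highest) with tunicamycin and at 13.2, 21.7 and 32.6 CPM with DMSO. The ranges overlapped widely, and in pair 3 the tunicamycin sample was the higher. The other genes of the tunnel exit were MRPL47 at -0.32, MRPL17 at -0.27, MRPL24 at -0.24, MRPL22 at -0.23 and MRPL45, which helps to dock the ribosome at the inner membrane, at 0.10. None of the 6 was called with batch or by DESeq2, 2 had an unadjusted p under 0.05, and the median was -0.25.

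The stalk at which translation factors bind is built from MRPL10, MRPL11, MRPL12 and, in mitochondria, MRPL53 and MRPL54, and the median of these 5 was -0.35, with none called by either edgeR fit or by DESeq2 and 3 lower at an unadjusted p under 0.05. MRPL12, which is also known to bind the mitochondrial RNA polymerase, was at 28.87 ± 6.24 CPM with tunicamycin and 38.8 ± 14.8 CPM with DMSO, where DMSO 5 reached 66.9 CPM. Its log2 fold change was -0.43 ± 0.19 (adjusted p = 0.201; 0.0915 with the block). MRPL12 shares 68.2% of its exon length on the same strand with AC139530.2, a gene that is not in the count table. MRPL53 was at -0.40 and lower in 6 of 6 pairs (adjusted p = 0.128), MRPL11 at -0.35 and MRPL54 at -0.16. MRPL10, to which the L12 copies attach, was at 0.02. The 9 genes of the central protuberance, the crest of the large subunit, had a median of -0.13, from -0.35 for MRPL27 to 0.02 for MRPL48. None was called by edgeR or DESeq2, and 1 was lower at an unadjusted p under 0.05, where 11.2% of all tested genes were lower. Among them are MRPL18, the homologue of the 5S rRNA-binding protein L18, at -0.21 ± 0.12, and MRPL58, a peptidyl-tRNA hydrolase built into the ribosome, at -0.13 ± 0.13.

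Other large subunit genes were called with the block alone. MRPL19, a protein with a bacterial homologue (L19), was at 38.4, 43.0 and 48.7 CPM (lowest, median and highest) with tunicamycin and at 43.5, 50.4 and 61.2 CPM with DMSO, a log2 fold change of -0.26 ± 0.10. It was lower in 6 of 6 pairs, with an adjusted p of 0.134 with batch and 0.0261 with the block. MRPL44, which carries a ribonuclease III-like domain, was at 15.9, 19.96 and 28.8 CPM with tunicamycin and at 21.3, 25.6 and 33.9 CPM with DMSO (-0.34 ± 0.16, adjusted p = 0.217; 0.0476 with the block). MRPL1, the protein of the L1 stalk next to the exit site of tRNA, was lower in 6 of 6 pairs as well, at 25.98 ± 5.95 CPM with tunicamycin and 35.5 ± 10.1 CPM with DMSO. It passed neither fit (-0.45 ± 0.20, adjusted p = 0.213; 0.0548 with the block). MRPL16, whose bacterial homologue L16 lies near the peptidyl transferase centre, was at 19.2 ± 2.3 CPM with tunicamycin and 25.1 ± 4.6 CPM with DMSO (-0.39, adjusted p = 0.0907), and was called by DESeq2 (0.0457).

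The small subunit was more evenly spread around 0, with 18 of 25 tested genes negative and a median of -0.12 (0 higher and 0 lower; 1 and 4 with the block; 0 and 2 by DESeq2; 2 and 5 at an unadjusted p under 0.05). Its 16 tested genes with a bacterial homologue had a median of -0.12 and the 9 specific to mitochondria one of -0.01. Of all tested genes 8.92% were higher and 8.4% lower with the block, and 6.4% and 5.9% by DESeq2. At an unadjusted p 10.8% were higher and 11.2% lower. MRPS15, which has a bacterial homologue (S15), lay at 22.2, 28.01 and 30.5 CPM (lowest, median and highest) with tunicamycin and at 29.4, 34.0 and 41.4 CPM with DMSO. It was lower in 6 of 6 pairs, at -0.37 ± 0.11, with an adjusted p of 0.0622 with batch, 0.0214 with the block and 0.0241 by DESeq2. MRPS7, whose bacterial homologue starts the assembly of the head, lay at 26.2, 30.7 and 36.5 CPM with tunicamycin and at 29.7, 39.0 and 47.1 CPM with DMSO. Its log2 fold change was -0.31 ± 0.10 (adjusted p = 0.0756; 0.0421 with the block; DESeq2 0.0322). MRPS6, another protein of bacterial descent, was at 24.4 ± 2.2 CPM with tunicamycin and 30.0 ± 4.9 CPM with DMSO (-0.30 ± 0.12, adjusted p = 0.140; 0.0490 with the block). MRPS6 shares 17.8% of its exon length on the same strand with SLC5A3, so some reads could belong to either gene. MRPS28 was at 19.995 ± 2.08 CPM with tunicamycin and 26.98 ± 6.57 CPM with DMSO (-0.43 ± 0.15, adjusted p = 0.0989, and 0.0456 with the block). It shares 42.0% of its exon length on the same strand with AC036214.3, a gene that is not in the count table.

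A few small subunit genes ran the other way. MRPS27, a pentatricopeptide repeat protein specific to mitochondria, lay at 46.8, 52.0 and 58.2 CPM (lowest, median and highest) with tunicamycin and at 38.3, 44.9 and 47.9 CPM with DMSO. It was higher in 6 of 6 pairs, with a log2 fold change of 0.26 ± 0.09 and an adjusted p of 0.0969 with batch and 0.0318 with the block. MRPS14 was at 36.9 ± 3.2 CPM with tunicamycin and 31.8 ± 2.0 CPM with DMSO (0.21 ± 0.09, adjusted p = 0.162), higher in 5 of 6 pairs. MRPS2, whose bacterial homologue joins the small subunit late in its assembly, was at 24.8 ± 4.3 CPM with tunicamycin and 21.4 ± 2.8 CPM with DMSO (0.21 ± 0.10, adjusted p = 0.246), higher in 6 of 6 pairs, with tunicamycin 6 at 33.0 CPM. MRPS12, the homologue of the decoding protein S12, was at -0.02, and MRPS22, MRPS31 and MRPS35, all specific to mitochondria, were between -0.01 and 0.03. MRPS36, whose product is no ribosomal protein, was at 14.2 ± 4.4 CPM with tunicamycin and 16.0 ± 3.0 CPM with DMSO (-0.19 ± 0.17, adjusted p = 0.563).

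The balance of the subunits differed slightly between the samples of each pair. The summed CPM of small subunit genes divided by that of large subunit genes was 0.542 ± 0.025 with tunicamycin and 0.503 ± 0.018 with DMSO (SD, n = 6 each). The lowest and highest tunicamycin libraries were at 0.509 and 0.584, against 0.489 and 0.537 for DMSO. Within pairs the ratio was higher in tunicamycin in 6 of 6, by 1.02 to 1.13 times. The groups overlapped, since DMSO 3, at 0.537, stood above tunicamycin 2, 4 and 5. This ratio is a description of the libraries, with no test.

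**Figure D4:**
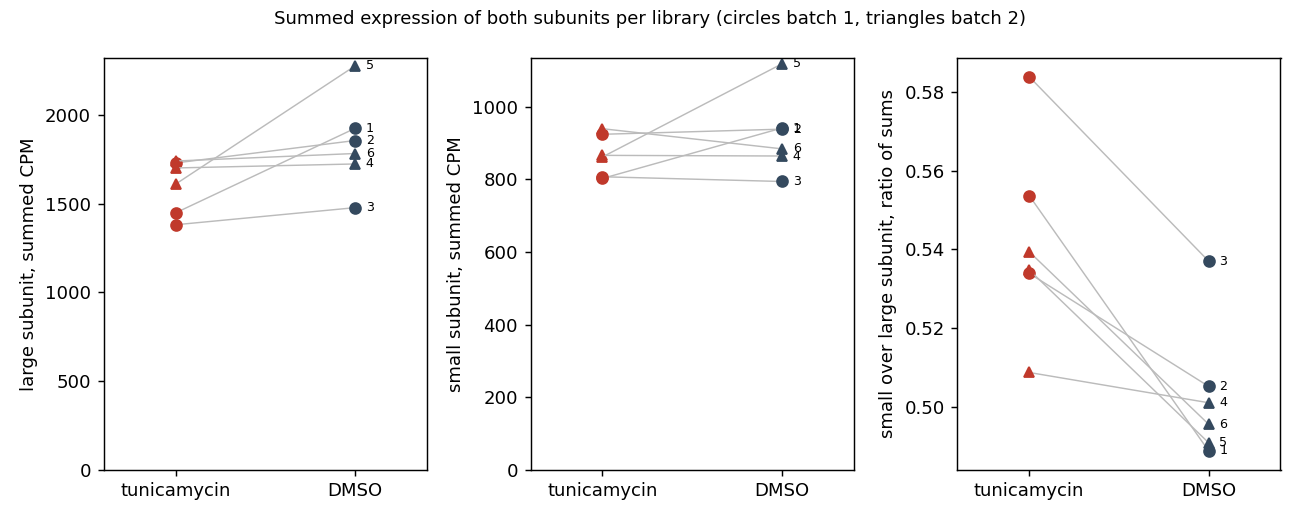
Summed CPM of the large subunit genes (left) and the small subunit genes (middle), and the ratio of small over large (right, axis not from 0), in each library, tunicamycin left of DMSO, with lines joining equal numbers. The ratio lies at 0.509 to 0.584 with tunicamycin and 0.489 to 0.537 with DMSO.

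Levels of the genes differed far more than the groups did. Per kilobase of exon, averaged over all 12 libraries, the median member stood at 17.3 CPM per kb. MRPL33, a short protein of the large subunit, was the most abundant, at 53.4 CPM per kb with tunicamycin and 61.9 with DMSO. MRPS34, a small subunit protein specific to mitochondria, followed with 49.3 CPM per kb with tunicamycin and 60.8 with DMSO, and MRPS26 with 42.4 CPM per kb with tunicamycin and 45.9 with DMSO. MRPS34 varied between 42.1 and 93.7 CPM in the DMSO libraries, so that its order relative to MRPL33 lies within the spread. None of these 3 genes was called, with log2 fold changes of -0.21, -0.30 and -0.11. At the low end stood MRPL48, at 4.01 CPM per kb with tunicamycin and 3.96 with DMSO.

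MRPS18B and MRPS24 were nearly without counts. MRPS24, the homologue of bacterial S3, had 3 counts over all tunicamycin libraries and 5 over all DMSO libraries, those 5 all in DMSO 6, and no fold is given. Of its exon length 77.0% is shared on the same strand with the readthrough gene URGCP-MRPS24, which had 0 counts in every library, while the upstream gene URGCP had 1183 to 1978. The sources used here do not give how reads in exons shared by annotated genes were counted. MRPS18B, at chr6:30617709-30626395 (GRCh38), had 6 to 23 counts in a library, 0.659 ± 0.166 CPM with tunicamycin and 0.572 ± 0.305 CPM with DMSO. Its log2 fold change, 0.26 ± 0.33 (adjusted p = 0.703), was the highest of the set by a small margin over MRPS27 and had the largest standard error among the tested members. It lies in the major histocompatibility region, and all 15 protein-coding genes from 200000 bp before it to 200000 bp after it, itself included, had group means of at most 5.94 CPM. Among these neighbours, TUBB, a tubulin gene, was at 3.54 CPM with tunicamycin and 5.47 CPM with DMSO and ABCF1 at 5.94 CPM with tunicamycin and 4.27 CPM with DMSO. MRPS18B has paralogues in MRPS18A, a large subunit protein at 11.3 ± 1.5 CPM with tunicamycin and 11.9 ± 2.4 CPM with DMSO, and MRPS18C, a small subunit protein at 8.26 ± 1.03 CPM with tunicamycin and 8.93 ± 0.87 CPM with DMSO. Neither was called (-0.06 and -0.12). Both overlap a gene on the opposite strand, MRPS18A with RSPH9 over 56.9% of its exon length and MRPS18C with ABRAXAS1 over 78.9%, and the strand setting of the counting is not given, so these levels are uncertain.

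Promoters were examined for the motifs of NRF1, of ETS family factors such as GABPA and of YY1, which are known regulators of nuclear genes for mitochondrial proteins. RefSeq promoters (GRCh38.p14), from 250 bases before to 50 bases after the transcription start, were matched by symbol for 69 of the 78 genes. Where a symbol had several, the one nearest the annotated gene start was taken for members, and the first listed for the comparison sets. The shares compared below thus rest on different rules of choice. Each motif was searched on both strands, and the letters AAG at the end of the ETS core can overlap those at the start of the YY1 core. The YY1 core AAGATGGC was found in 20 of the 69 promoters (28.99%), against 4.64% of 12834 promoters of tested genes and 3.03% of all 27305. In 15 of the 69 (21.7%) it lay on the sense strand after the start, beginning at bases 7 to 36, against 2.63% of promoters of tested genes. In the remaining 5, MRPL32, MRPL36, MRPL47, MRPL52 and MRPS12, it lay before the start, at positions from -222 to -35. The 30 bases around the core, in capitals, are shown for 8 of the 15 with the core after the start, as examples chosen after the positions were seen (RefSeq, GRCh38.p14, gene strand, 5′ to 3′):
MRPL20 (chr1:1407260-1407289, minus): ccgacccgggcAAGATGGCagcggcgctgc
MRPL22 (chr5:154941093-154941122, plus): gtagcgggagggcgaAAGATGGCggcggca
MRPL42 (chr12:93467511-93467540, plus): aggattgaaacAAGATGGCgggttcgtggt
MRPL45 (chr17:38297170-38297199, plus): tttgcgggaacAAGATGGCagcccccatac
MRPS7 (chr17:75261887-75261916, plus): cgtggccagccAAGATGGCtgcccccgcag
MRPS18B (chr6:30617852-30617881, plus): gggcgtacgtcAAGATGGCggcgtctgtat
MRPS24 (chr7:43869480-43869509, minus): ccgcttggcccAAGATGGCggcctccgtgt
MRPS27 (chr5:72320206-72320235, minus): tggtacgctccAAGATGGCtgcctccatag

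The ETS core CCGGAAG was found in 29 of the 69 promoters (42.0%), against 16.8% of promoters of tested genes, and the NRF1 core GCATGCGC in 6 (8.70%), against 4.91%. The core of the ATF4 response element, TGATGNAA, was found in 1 (MRPL55; 1.45%), against 1.85% of promoters of tested genes. The CCAAT box stood in 28.99% of members and 36.0% of promoters of tested genes, and the GC box GGGCGG in 59.4% of members and 66.6% of promoters of tested genes. Promoters of 3 members that the results name are shown from 150 bases before the start up to it, MRPS34 with 3 ETS cores, MRPL20 with 2 and MRPL17 with NRF1 cores that partly overlap, all in capitals (RefSeq, GRCh38.p14, minus strand for all 3):
MRPS34 (chr16:1773135-1773284): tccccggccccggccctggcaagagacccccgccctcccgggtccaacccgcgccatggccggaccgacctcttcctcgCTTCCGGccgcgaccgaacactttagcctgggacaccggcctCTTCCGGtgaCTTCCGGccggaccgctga
MRPL20 (chr1:1407294-1407443): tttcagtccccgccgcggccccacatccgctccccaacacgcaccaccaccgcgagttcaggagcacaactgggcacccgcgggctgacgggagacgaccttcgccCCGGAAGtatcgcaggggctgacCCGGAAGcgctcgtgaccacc
MRPL17 (chr11:6683341-6683490): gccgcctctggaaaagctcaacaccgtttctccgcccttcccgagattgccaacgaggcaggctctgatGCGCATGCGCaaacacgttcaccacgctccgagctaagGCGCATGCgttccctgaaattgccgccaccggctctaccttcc
Medians of members with and without these letters are described without a test. The median log2 fold change was -0.16 for members with the YY1 core and -0.15 for those without it, and -0.13 with and -0.19 without the ETS core. A match describes letters in these windows and not binding.

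**Figure D5:**
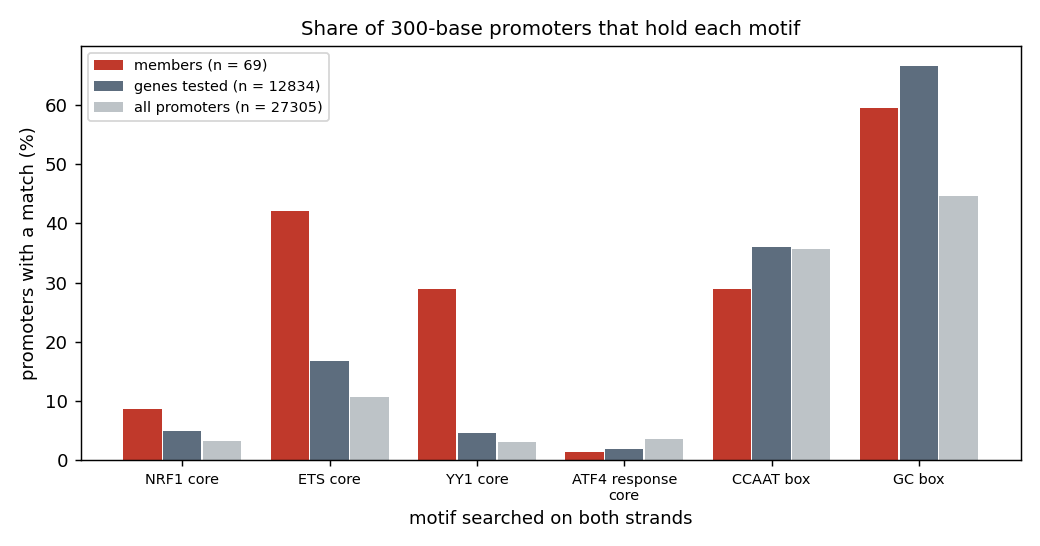
Percentage of 300-base promoters with at least 1 match to each motif on either strand, for the members (n = 69), for genes tested (n = 12834) and for all promoters (n = 27305). The YY1 core is in 28.99% of members against 4.64% of genes tested, and the ETS core in 42.0% against 16.8%.

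Close, non-overlapping starts on opposite strands were more frequent in the set than among protein-coding genes of the table. Partners were protein-coding genes on the opposite strand whose start lay up to 1000 bp upstream of the gene's own start. Genes whose start lay downstream of it, so that both overlapped, were not counted. A partner was found for 16 of the 78 genes (20.5%), against 7.28% of 19295 protein-coding genes in the table. The latter include genes that did not pass the filter. Only the distance between annotated starts was measured, which reached 965 bp for MRPL54 and APBA3, and sharing of a promoter was not tested. MRPL46 of the large subunit and MRPS11 of the small subunit form such a pair, 34 bp apart, and had log2 fold changes of -0.03 and -0.12. MRPL36 is paired with NDUFS6 (-0.31 and -0.21) and MRPL47 with NDUFB5 (-0.32 and -0.21), both partners encoding subunits of respiratory complex I. None of the 16 partners was called by edgeR, and the smallest adjusted p was 0.396, that of NDUFS6.

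The genes around the mitochondrial ribosome were described for comparison. Ribosomal proteins whose symbols fall outside the rule, DAP3, CHCHD1, AURKAIP1, PTCD3 and GADD45GIP1, all had negative values, with a median of -0.26 (0 of 5 higher and 0 lower with either edgeR fit and by DESeq2; 0 and 3 at an unadjusted p under 0.05). Of 33 genes of ribosome assembly and rRNA maturation 1 rose and 1 fell, with a median of -0.05. With the block and by DESeq2 1 was higher and 4 were lower, and at an unadjusted p under 0.05 1 was higher and 9 were lower. Of all tested genes 3.29% were lower with batch, 8.4% with the block, 5.9% by DESeq2 and 11.2% at an unadjusted p. MPV17L2, an inner membrane protein needed for assembly, rose to 17.9 ± 2.1 CPM with tunicamycin, against 11.2 ± 1.3 CPM with DMSO (0.67 ± 0.12, adjusted p = 0.0030), and was higher in 6 of 6 pairs. HSD17B10, a subunit of the mitochondrial ribonuclease P, fell to 51.2 ± 8.2 CPM, against 71.8 ± 18.1 CPM with DMSO (-0.49 ± 0.13, adjusted p = 0.0369), with DMSO 5 at 106 CPM. HSD17B10 was lower in 6 of 6 pairs and was also called with the block (adjusted p = 0.0104) and by DESeq2 (0.0081). Its call with batch was lost without any of tunicamycin 1, 2, 3, 4 and 5 or DMSO 1, 2 and 5, with adjusted p between 0.0518 and 0.105. Of 16 mitochondrial translation factors 0 were higher and 0 lower with either edgeR fit and by DESeq2 (0 and 2 at an unadjusted p under 0.05; median -0.03). Of 20 mitochondrial aminoacyl-tRNA synthetases 1 rose, EARS2, which charges glutamate, at 35.1 ± 1.2 CPM with tunicamycin and 27.4 ± 2.9 CPM with DMSO (0.36 ± 0.09, adjusted p = 0.0256), and 0 fell (median -0.02; 1 higher and 1 lower with the block). The lower one was SARS2, which charges serine, at 19.4 ± 3.9 CPM with tunicamycin and 24.3 ± 4.8 CPM with DMSO (-0.32 ± 0.16, adjusted p = 0.277; 0.0334 with the block), lower in 6 of 6 pairs. EARS2 was also called with the block (adjusted p = 0.0081) and by DESeq2 (0.0033). Its call with batch was lost without tunicamycin 4, 5 or 6 or DMSO 1, with adjusted p between 0.0510 and 0.0719.

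Of 14 regulators of mitochondrial transcription and biogenesis 1 rose and 0 fell, with a median of 0.04. With the block and by DESeq2 2 were higher and 0 lower, and at an unadjusted p under 0.05 2 were higher and 1 lower. Of all tested genes 4.56% were higher with batch, 8.92% with the block, 6.4% by DESeq2 and 10.8% at an unadjusted p. PPARGC1A, the coactivator PGC-1alpha, was at 17.9 ± 4.3 CPM with tunicamycin and 11.01 ± 1.29 CPM with DMSO (0.70 ± 0.16, adjusted p = 0.0173), higher in 6 of 6 pairs. PPARGC1A was also called with the block (adjusted p = 0.0044) and by DESeq2 (0.0013). Its call with batch was lost without tunicamycin 4 (0.0571) or tunicamycin 5 (0.0509). MYC had the largest fold change of the list, at 11.9 ± 4.8 CPM with tunicamycin and 6.32 ± 2.56 CPM with DMSO, and was higher in 6 of 6 pairs. Its log2 fold change of 0.89 ± 0.31 was not called with batch (adjusted p = 0.102), but was with the block (0.00084) and by DESeq2 (0.0379). Of the factors whose motifs were searched, NRF1 was at -0.03, GABPA at -0.03 and YY1 at 0.09, with adjusted p from 0.551 to 0.9002, and ATF4 rose (0.46).

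Cytosolic ribosomal proteins and respiratory subunits, added after seeing the data, also had their lowest medians in the pairs numbered 1 and 5. Of 80 tested cytosolic ribosomal protein genes 0 were called higher and 0 lower with batch (0 and 4 at an unadjusted p under 0.05; 0 and 1 by DESeq2), with a median of -0.19 and 76 negative values, and pair medians of -0.53, 0.09, -0.19, -0.02, -0.61 and 0.26 for numbers 1 to 6. Of 79 tested genes of nuclear-encoded respiratory chain and ATP synthase subunits 0 were higher and 5 lower (0 and 14 with the block and by DESeq2; 0 and 38 at an unadjusted p under 0.05), with a median of -0.30 and 75 negative values. Of all tested genes 3.29% were lower with batch, 8.4% with the block, 5.9% by DESeq2 and 11.2% at an unadjusted p, and 51.7% were negative. Their pair medians were -0.58, -0.12, -0.10, -0.03, -0.63 and -0.09.

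No difference in response between the batches passed the test. The interaction of treatment and batch was called for 0 of 77 members by edgeR and by DESeq2, and for 0% of all tested genes by either, and 0 members had an unadjusted p under 0.05, against 0.986% of all tested genes. The smallest interaction p among the members were 0.202 for MRPL18, at -0.35 in batch 1 and -0.05 in batch 2, and 0.243 for MRPL45, at -0.10 in batch 1 and 0.31 in batch 2.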

How the data were processed

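Total RNA from 12 samples was made into libraries with NEBNext Ultra II chemistry, per the labels' protocols. The authors deposited raw counts, as whole numbers per gene symbol with no normalization. The submitters' processing notes name HISAT2 2.1.0, featureCounts 2.0.6, cutadapt 4.4 and build GRCh38. Neither strand setting nor annotation is stated there. Totals ran from 17523442 to 28872269 counts. No 2 samples of a group agreed within counting noise (chi-square per gene 10.9 to 99.6, genes of summed count 20 or higher). The labels call the replicates biological but do not say whether they were separate differentiations, so the p-values reflect the spread among these samples, which may be technical.

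Counts were filtered with filterByExpr, scaled with TMM and tested with edgeR 4.0.16 (quasi-likelihood test, batch as covariate, R 4.3.3), two-sided, with Benjamini-Hochberg adjustment over 17137 genes and a threshold of 0.05. DESeq2 1.42.0 was an alternative, as were other scalings, filters and left-out samples. Gene positions and exon lengths (union over transcripts) are from GENCODE for GRCh38 and promoters from RefSeq. Ratios within pairs used CPM + 0.5.

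Equal sample numbers were taken to pair the samples in the ratios within pairs and in the fit with the block. The main fit used batch and not the pairs. Among genes at or above a mean log2 CPM of 1, deviations of same-numbered samples from group and batch means correlated at 0.58, 0.69, 0.63, 0.13, 0.20 and 0.19 for numbers 1 to 6, all above 0.1. For numbers 4 and 5 a sample of another number correlated more highly, at 0.31 and 0.29. What a number marks is not in the labels.

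The genes, lists, tests and alternatives were chosen with earlier results of these data known. Named were members called with batch or with the block, the 3 largest changes in each direction among members whose mean log2 CPM was at least 1, the 3 most and 3 least abundant per length, the S18 paralogues, the 2 smallest interaction p, MRPS36, and called genes of the other lists. Members named as parts of a site, DESeq2 calls and MYC were added after their values were seen.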

Additional observations from a re-analysis of the deposited data

Results flagged for a closer look

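In 4 of 64 groups of 6 libraries, over 32 genes and sums, 1 library stood far from the other 5, and chance alone sets apart about 1 in 20 groups. MRPS28 was at 24.0 CPM in tunicamycin 2, above the other tunicamycin libraries, and MRPS2 at 33.0 CPM in tunicamycin 6. MRPS24 was at 0.220 CPM in DMSO 6, which held all 5 of its counts in that group. HSD17B10 was at 106 CPM in DMSO 5, the library that was also highest for 52 of the 77 mitochondrial ribosomal protein genes.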

How the results depend on the processing

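The median log2 fold change of the members stayed negative in every fit run. It ran from -0.21 to -0.11 with 1 library left out, and was -0.05 without the samples numbered 1 and 5. Counts of called members were small and moved. The count lower, 1 in the fit with batch, was 8 with the replicate block for sample number, 3 with library totals or upper-quartile factors, and 4 with DESeq2. It was 0 without the batch covariate, in batch 1 or batch 2 alone, and without both samples numbered 1, both numbered 5 or all 4. With 1 library left out it ran from 0 to 4, with 0 without tunicamycin 4 or DMSO 5, 2 without DMSO 6 and 4 without DMSO 3. The count higher, 0 with batch, was 1 with the block, 1 with the block but without the samples numbered 1 and 2 without those numbered 1 and 5; it was 0 in each fit that left out 1 library. With the block but without the samples numbered 5 the count lower was 2. Of the 9 members called with the block, 1 was also called with batch. The cause of these moves was not tested.

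Near 0, a few signs turned. MRPL48 was at -0.012 with upper-quartile factors, -0.073 in batch 2, and -0.067, -0.014, -0.074 and -0.022 without tunicamycin 2, tunicamycin 6, DMSO 3 and DMSO 6 (up to 0.11 with 1 library left out). MRPS18A was at 0.0061 in batch 1, 0.0020 without DMSO 1 (down to -0.14 with 1 library left out) and 0.0016 with the block without the samples numbered 1 and 5. MRPL45 was at -0.098 in batch 1 and -0.0010 without tunicamycin 4 (up to 0.20 with 1 library left out), and MRPS26 at 0.10 without the samples numbered 1 and 5, with or without the block. Over all fits of single named members under the alternatives, 597 kept direction and call, 13 turned sign, 20 gained a call and 8, all of MRPL28, lost it. Precision is limited by 6 samples a group and, for MRPS18B and MRPS24, by counts.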
